A study of Rattus norvegicus with 6 samples.

Results

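The genes described here encode the alpha chains of the collagens. They were taken as every gene whose symbol is Col, a type number, the letter a and a chain number, which gave 44 gene identifiers with 43 symbols among 32623 genes (Col23a1 has 2 identifiers). Col4a3bp, a ceramide transporter whose name only starts with a collagen symbol, is outside that rule. Col1a2 and Col21a1 had no matching symbol and were not analysed here. Collagen sums and shares below therefore lack both, and those of the fibrillar class lack Col1a2. The libraries come from Han Wistar rats, from primary sinusoidal endothelial cells (LSEC), which line the capillaries of the liver and carry open pores. LSEC were kept for 48 h in the Exoliver device, a perfused culture system, alongside 3 other primary cell types of the liver: hepatocytes, hepatic macrophages and stellate cells. The shear stress was 1.15 dyn/cm2 in both groups. The physiological group was kept at 1 mmHg (3 libraries) and the pathological group at 12 mmHg (3 libraries), and no other treatment, age or genotype is given in the sources used here. Polyadenylated RNA was sequenced from single ends, and levels are given as CPM, a gene's expected count scaled to the total of its library. Values are listed for physiological replicates 1, 2 and 3 and then for pathological replicates 1, 2 and 3.

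Collagens are built from 3 alpha chains wound into a triple helix. Fibrillar collagens (types I, III and V) form the fibrils that thicken in a fibrotic liver, and type IV forms the sheet-like network of basement membranes. Types XV and XVIII sit in basement membranes as proteoglycans, and type VI forms beaded microfibrils around cells. In the liver, stellate cells are the best known source of fibrillar collagen in fibrosis, whereas sinusoidal endothelium normally rests on a sparse matrix rather than on a continuous basement membrane.

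The 6 libraries differed strongly in the transcripts of other liver cells. Alb, the hepatocyte gene of serum albumin, measured 56.6, 23840 and 12800 CPM at physiological and 155, 301 and 26200 CPM at pathological pressure. Lrat, the retinol-esterifying enzyme that marks vitamin A-storing stellate cells, measured 1.42, 610, 519, 2.65, 7.36 and 853 CPM. The same 3 libraries were high in both genes: physiological replicates 2 and 3 and pathological replicate 3. They are called Alb-rich below (over 1000 CPM of Alb), and the other 3 Alb-poor. This split was made from the data and is not a group of the study. Library totals ran from 8925149 to 24025406 counts, and 10234 to 17189 genes had at least 1 count. All 16 hepatocyte markers were higher in every Alb-rich than in every Alb-poor library, though Alb, 1 of them, defines the split. So were 10 of 13 tested stellate cell markers, 7 of 14 markers of sinusoidal endothelium and 7 of 12 of macrophages. Over all genes tested the share was 15.6%. The summed level of 14 sinusoidal endothelial markers was 724 to 2899 CPM in the Alb-poor and 3403 to 5349 CPM in the Alb-rich libraries. The sum hides differences between markers. Stab2 measured 10.24, 209.7, 135.7, 3.284, 13.66 and 188.5 CPM, and Kdr 55.36, 506.5, 279, 4.925, 12.18 and 450.1 CPM. Both were among the 7 higher in every Alb-rich library, and none of the 14 was lower in every one. In pathological replicate 2, where the sum was lowest, Gata4 (231.5 CPM) and Cdh5 (196.8 CPM) were its largest parts. The sum therefore does not show how much of the labelled cell type each library held.

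Col4a1 and Col4a2 are transcribed away from each other from neighbouring starts, and their ratio is described below, as are the levels of Col4a4 and Col18a1, so the start regions of these genes are shown. The sequences are from RefSeq (build GRCr8), written 5′ to 3′ on the plus strand. Capitals mark the letters GGGCGG or the reverse complement CCGCCC, the core of a GC box. Col4a1 is on the plus and Col4a2 on the minus strand of chromosome 16, with start sites 77 bases apart. The first sequence is everything between those starts. Col4a3 (plus) and Col4a4 (minus) on chromosome 9 start 413 bases apart, and the second sequence is the 200 bases next to the Col4a4 start, on the side towards Col4a3. The third sequence is the 100 bases before Col18a1.
Col4a1 and Col4a2, chr16:84885521-84885596: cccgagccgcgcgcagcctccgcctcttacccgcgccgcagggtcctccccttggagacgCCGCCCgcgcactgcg
Before Col4a4, chr9:91323578-91323777: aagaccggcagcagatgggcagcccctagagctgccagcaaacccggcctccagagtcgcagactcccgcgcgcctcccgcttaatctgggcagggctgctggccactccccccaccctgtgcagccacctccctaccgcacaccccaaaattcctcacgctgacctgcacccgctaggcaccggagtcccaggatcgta
Col18a1, chr20:11473545-11473644: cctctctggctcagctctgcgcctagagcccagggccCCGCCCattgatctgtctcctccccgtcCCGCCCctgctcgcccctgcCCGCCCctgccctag
The Col4a1 and Col4a2 interval holds 1 such match, the stretch before Col4a4 none and that before Col18a1 3. Among promoter windows that hold 250 bases before a start and 50 from it on, GGGCGG on either strand was found in 33.1% of all 33469 windows and in those of 9 of 14 matched collagen genes that were tested. CCAAT was found in 37.5% and in 3 of 14, and TATAAA in 14.2% and in 1 of 14. These matches describe letters only. Col4a5 and Col4a6 form the third head-to-head pair, with starts 1415 bases apart on chromosome X.

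No collagen chain passed the test between the pressures. Of the 44 identifiers, 20 had enough counts to be tested, 18 had counts but were left out by the filter on low values, and 6 had no count in any library (Col6a4, Col9a1, Col11a1, Col25a1, Col26a1 and the second Col23a1 identifier). With edgeR's quasi-likelihood test, 0 of the 20 chains had an adjusted p under 0.05, against 0% of the 12742 genes tested. The count at an unadjusted p under 0.05 was also 0 of 20, against 0.259% of all genes. DESeq2 and limma-voom called 0 chains by either threshold, though DESeq2 gave no adjusted p for Col13a1. Fold changes are given as log2 of pathological over physiological. They were negative for 13 and positive for 7 chains, with a median of -0.86, against 0.05 and 47.5% negative over all genes tested. The chains that passed the filter are not all members, and their median is a description only. The median standard error of a chain's log2 fold change was 2.13, so for such a chain a difference of a few fold was not detectable. It ran from 0.586 for Col4a1 to 2.98 for Col5a1. The labels do not say whether the samples came from separate animals or cultures, so the p-values rest on a spread between libraries that may be technical.

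**Figure D1:**
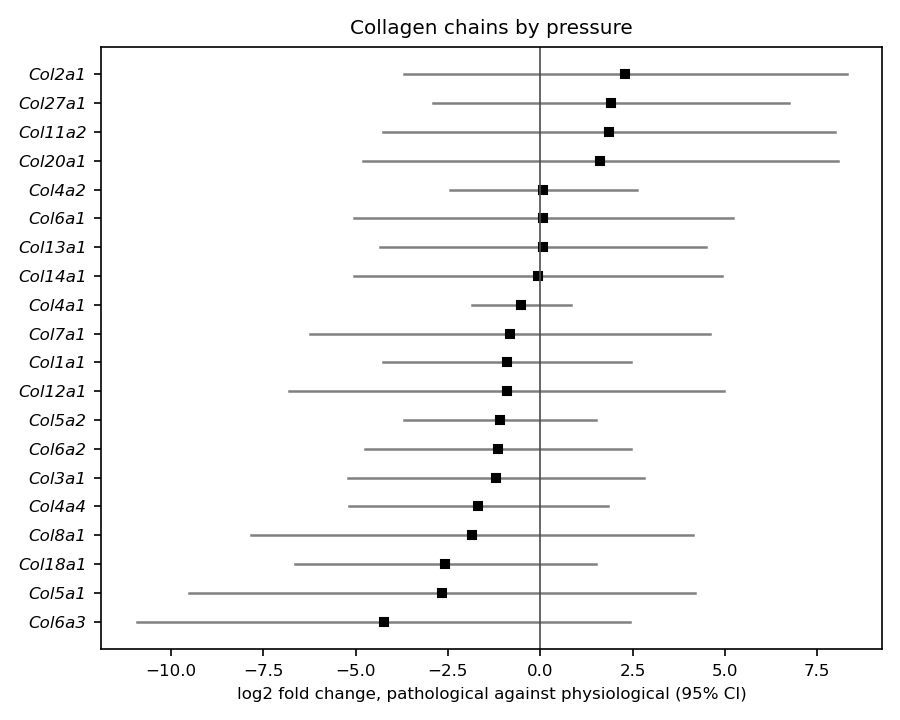
Log2 fold change of the 20 tested collagen chains, pathological against physiological pressure (squares), with 95% confidence intervals from edgeR's fit (lines). Every interval crosses 0, and the narrowest belongs to Col4a1 (-1.86 to 0.84).

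Counting chains whose 3 pathological libraries all lay below the 3 physiological libraries gave 2 of 20, Col18a1 and Col5a2, against 3.29% of all genes. No chain lay higher in all 3 pathological libraries, against 0.981% of all genes. Divided by Alb content instead, 5 of 20 chains were higher in every Alb-rich library (Col3a1, Col4a4, Col6a2, Col13a1 and Col14a1), against 15.6% of all genes. Another 7 were lower in every Alb-rich library (Col4a2, Col7a1, Col12a1, Col2a1, Col11a2, Col20a1 and Col27a1), against 33.2%. The filter asked for a minimum level in at least 3 libraries. Col7a1, Col2a1, Col11a2, Col20a1 and Col27a1 reached it only in the 3 Alb-poor libraries, so passing the filter fixed their direction here. The same filter shaped the share of all genes. In such bulk RNA, fewer cells of a type and less RNA per cell cannot be told apart, and this holds for every level below.

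**Figure D2:**
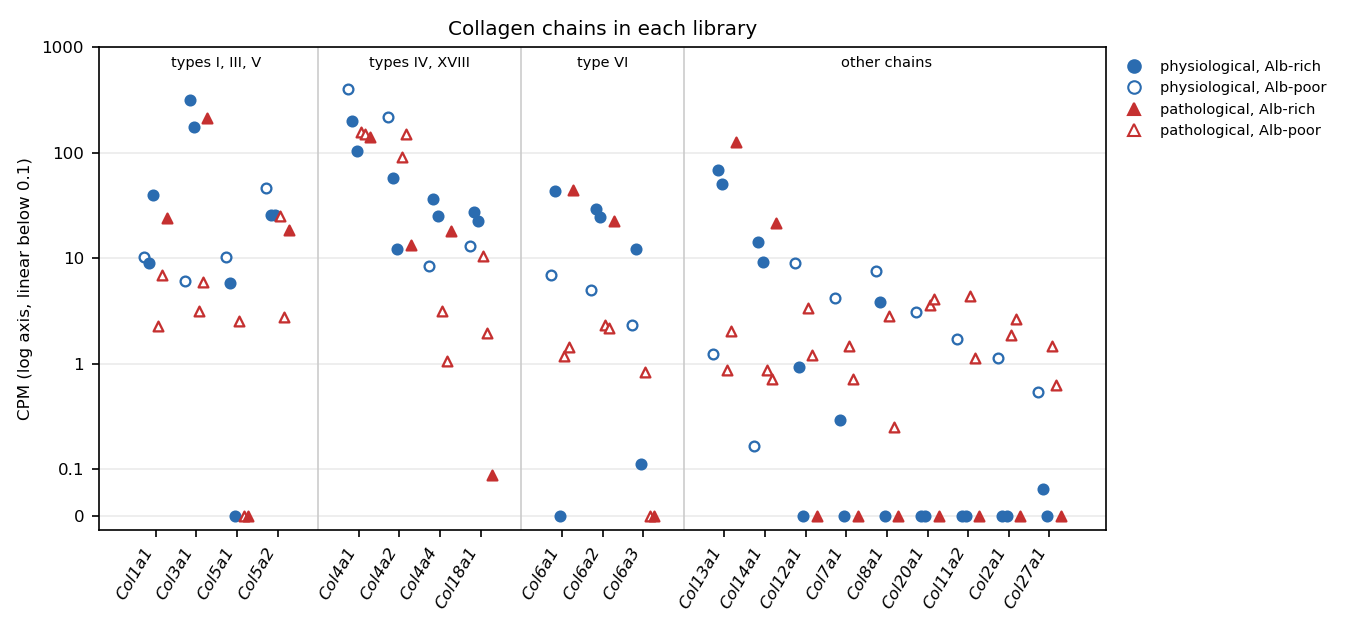
CPM of each tested collagen chain in each library (log axis, linear below 0.1). Circles are physiological and triangles pathological libraries, and filled symbols are Alb-rich; for Col3a1, Col13a1 and Col14a1 the filled symbols stand above all open ones whatever the pressure.

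Among the fibrillar chains, the Alb content of a library separated Col3a1 by more than pressure did. Col3a1 (ENSRNOG00000003357), whose product forms homotrimers in reticular fibrils of the liver, measured 6.15, 318 and 176 CPM at physiological and 3.16, 5.92 and 210 CPM at pathological pressure. The 3 Alb-rich libraries measured 176 CPM or more and the 3 Alb-poor ones 6.15 CPM or less, so both pressure groups held high and low values. Its log2 fold change was -1.20 (95% CI -5.21 to 2.81, edgeR adjusted p = 1.00). Without pathological replicate 3, the Alb-rich library of its group, the value was -5.26.

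Col1a1 (ENSRNOG00000003897), the major chain of type I collagen, measured 10.3, 9.00, 39.4, 2.27, 6.98 and 24.2 CPM. It was highest in physiological replicate 3 and pathological replicate 3, while physiological replicate 2, rich in Alb and in Col3a1, lay at the level of the Alb-poor physiological replicate 1. Its log2 fold change was -0.90 (95% CI -4.27 to 2.47). The 2 fibrillar chains therefore did not keep a fixed proportion. Col3a1 counts per Col1a1 count were 0.597, 35.3, 4.47, 1.39, 0.849 and 8.68, with exact 95% intervals of 30.1 to 41.8 in physiological replicate 2 and 0.484 to 0.735 in physiological replicate 1. These intervals, and all those on counts below, cover counting error only, since the reads carry no stated molecular identifiers.

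The type V chains, which set the diameter of type I fibrils, followed another order. Col5a2 (ENSRNOG00000003736) measured 46.1, 25.5 and 25.6 CPM at physiological and 25.0, 2.75 and 18.6 CPM at pathological pressure. The groups did not overlap, but only 25.5 against 25.0 CPM separated them at the nearest point. Between the groups the log2 fold change was -1.08 (95% CI -3.68 to 1.51), and edgeR's adjusted p was 1.00. Col5a1 measured 10.4, 5.84, 0, 2.57, 0 and 0 CPM, so it was counted in 3 libraries only, with an upper limit of 0.336 CPM in physiological replicate 3 from a floor of 3 counts. Col5a3 did not reach the filter, with 22 counts over all libraries. Neither Col5a1 nor Col5a2 followed Alb or Lrat: Col5a2 was highest in physiological replicate 1, where Lrat was lowest.

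The 5 fibrillar genes together made up 73.6, 358 and 242 CPM at physiological and 33.2, 15.7 and 253 CPM at pathological pressure. The pressure groups overlapped, with a difference of mean log2 levels of -1.86, and no test was made of this sum. Without pathological replicate 3 the difference was -3.02, and without pathological replicate 2 it was -1.02. All 3 Alb-rich libraries (242 to 358 CPM) lay above all 3 Alb-poor ones (15.7 to 73.6 CPM). Within the Alb-poor libraries, the physiological one was the highest, and within the Alb-rich libraries, the pathological one lay between the other two.

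Basement membrane chains were counted in all 6 libraries, and their sum did not follow Alb. Col4a1 (ENSRNOG00000016281), which joins Col4a2 in the common type IV network of all basement membranes, measured 400, 201 and 104 CPM at physiological and 157, 151 and 141 CPM at pathological pressure. The pathological values lay within the physiological range, and the 3 pathological libraries were close together (150 ± 8.53 CPM, SD, n = 3, against 235 ± 151 CPM). The log2 fold change was -0.51 (95% CI -1.86 to 0.84, edgeR adjusted p = 1.00), the narrowest interval of any chain. It was -0.05 without physiological replicate 1, the library with the highest value.

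Col4a2 (ENSRNOG00000023972), the partner chain, measured 218, 57.1, 12.2, 90.3, 150 and 13.5 CPM. All 3 Alb-poor libraries were above all 3 Alb-rich ones, the reverse of Col3a1, and the pressure groups overlapped widely. Its log2 fold change was 0.08 (95% CI -2.45 to 2.62). Col4a1 and Col4a2 share the interval printed above, yet their ratio was not constant: there were 1.83, 3.52 and 8.54 Col4a1 counts per Col4a2 count at physiological and 1.74, 1.01 and 10.4 at pathological pressure. The exact 95% intervals of the 3 Alb-rich libraries (3.28 to 3.79, 6.998 to 10.5 and 8.83 to 12.4) lay above those of the 3 Alb-poor libraries (0.963 to 1.90 in all). Physiological replicate 3 and pathological replicate 3, with the highest ratios, were also the libraries with the lowest totals (8925149 and 11426299 counts) and the fewest genes with a count (10649 and 10234). The part of library complexity in the ratio was not tested.

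**Figure D3:**
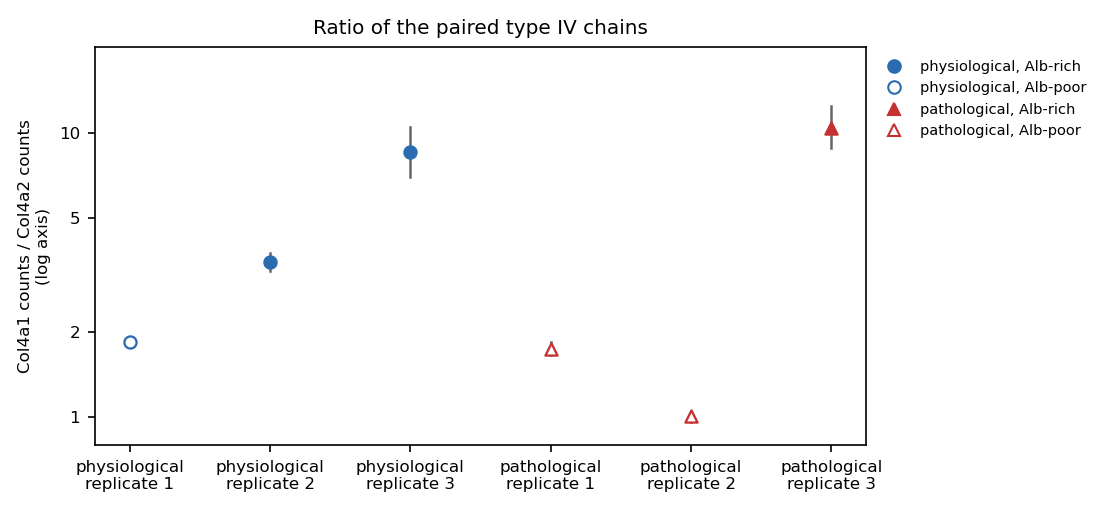
Ratio of Col4a1 to Col4a2 counts in each library (log axis), with exact 95% intervals for counting error (lines). The 3 Alb-rich libraries, filled, stand at 3.52 to 10.4 and the 3 Alb-poor ones, open, at 1.01 to 1.83, in both pressure groups.

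Col4a4 (ENSRNOG00000014851), a chain known from the glomerular basement membrane, measured 8.53, 36.6, 25.3, 3.20, 1.06 and 18.03 CPM. It was higher in the 3 Alb-rich libraries, and within each side of that split the pathological libraries were the lower ones. The log2 fold change was -1.68 (95% CI -5.19 to 1.82). Its head-to-head partner Col4a3 had 11, 1 and 0 counts at physiological and 0, 26 and 0 counts at pathological pressure, so Col4a4 outnumbered it except in pathological replicate 2 (25 against 26 counts). Col4a5 and Col4a6, the remaining pair, had 17 and 7 counts over all libraries.

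Col18a1 (ENSRNOG00000001229), whose C-terminal fragment is endostatin, measured 13.1, 27.6 and 22.7 CPM at physiological and 10.5, 1.95 and 0.0875 CPM at pathological pressure. The groups did not overlap, and the lowest physiological library (13.1 CPM) was near the highest pathological one (10.5 CPM). Both of these were the first replicates and Alb-poor. The log2 fold change was -2.57 (95% CI -6.64 to 1.503), with an unadjusted p of 0.184 and an edgeR adjusted p of 1.00. Pathological replicate 3 had 1 count of Col18a1, although Alb and Lrat were highest there. Among the Alb-rich libraries alone, which leaves 1 pathological library, the log2 fold change was -8.04, against -0.88 among the Alb-poor libraries alone. Col15a1, the related proteoglycan chain, had 6 counts in pathological replicate 1 and none elsewhere.

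The 8 basement membrane genes summed to 641, 323, 165, 262, 305 and 172 CPM. The pressure groups overlapped, with a difference of mean log2 levels of -0.43, and the Alb-rich and Alb-poor libraries overlapped as well. Without physiological replicate 1 the difference was 0.06. As a share of all collagen counts, however, the class stood at 84.1, 80.9 and 89.9% in the Alb-poor and 37.6, 33.2 and 26.9% in the Alb-rich libraries. Fibrillar chains made up 9.65, 10.3 and 4.62% in the Alb-poor and 41.8, 48.7 and 39.5% in the Alb-rich libraries. Counting error on these shares was small, with Wilson 95% intervals of 25.9 to 27.9% for the lowest and 89.2 to 90.5% for the highest share of the basement membrane class.

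**Figure D4:**
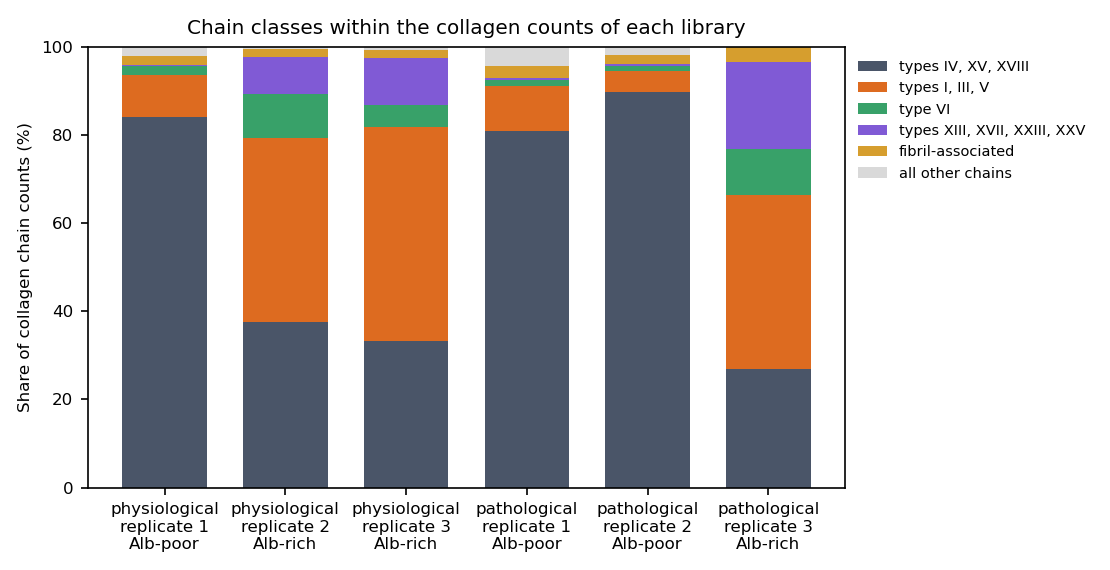
Share of each chain class in the collagen counts of each library (%), stacked to 100. Types IV, XV and XVIII make up 80.9 to 89.9% in the 3 Alb-poor and 26.9 to 37.6% in the 3 Alb-rich libraries, and each pressure group holds both kinds.

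The chains of type VI collagen, which assemble as a heterotrimer of Col6a1, Col6a2 and one further chain, were not counted in step. Col6a2 (ENSRNOG00000001254) measured 4.95, 29.3, 24.5, 2.36, 2.20 and 22.5 CPM, higher in each Alb-rich than in each Alb-poor library, with a log2 fold change of -1.15 (95% CI -4.76 to 2.45). That value was -3.23 without pathological replicate 3 and -0.68 without pathological replicate 1. Col6a1 (ENSRNOG00000001249) measured 6.99, 43.1, 0, 1.18, 1.44 and 44.7 CPM. It was high in physiological replicate 2 and pathological replicate 3 and had no count in physiological replicate 3, where Col6a2 had 219 counts. For Col6a1 the log2 fold change was 0.08 (95% CI -5.05 to 5.21).

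Col6a3 (ENSRNOG00000019648), the longest of them, had 56, 211 and 1 counts at physiological and 20, 0 and 0 counts at pathological pressure. Its log2 fold change of -4.25 (95% CI -10.93 to 2.44) had the smallest unadjusted p of any chain, 0.181. It was -2.00 without physiological replicate 2 and -9.35 without pathological replicate 1. Its groups overlapped, because physiological replicate 3 (1 count) lay below pathological replicate 1. Col6a5 and Col6a6 had 6 and 10 counts. The 6 type VI genes summed to 14.9, 84.6, 24.6, 4.38, 3.72 and 67.2 CPM, with a difference of mean log2 levels of -1.61, overlapping pressure groups and Alb-rich libraries above Alb-poor ones. Without pathological replicate 3 that difference was -2.96, and without pathological replicate 2 it was -0.87.

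Among chains outside these 3 classes, Col13a1 and Col14a1 were separated by Alb content. Col13a1 (ENSRNOG00000000552), a transmembrane collagen of cell adhesion sites, measured 1.25, 68.6, 50.9, 0.884, 2.03 and 127 CPM. Pathological replicate 3 was the highest and the 3 Alb-poor libraries were all at or below 2.03 CPM. Its log2 fold change was 0.07 (95% CI -4.35 to 4.48). Col3a1 counts per Col13a1 count ran from 1.66 to 4.93 over the 6 libraries, while each chain's own level ranged more widely. The ratio was not constant, with exact 95% intervals of 1.556 to 1.775 in pathological replicate 3 and 4.35 to 4.94 in physiological replicate 2. Col3a1 counts per Col14a1 count ran from 3.57 to 37. Col14a1, a fibril-associated collagen, measured 0.167, 14.2, 9.19, 0.884, 0.719 and 21.5 CPM, in the same 3 libraries, with a log2 fold change of -0.06 (95% CI -5.05 to 4.93). Col17a1, the hemidesmosome collagen of epithelia, did not reach the filter: its 2, 63 and 17 counts at physiological pressure stood against 0 in all 3 pathological libraries. Most of the 82 counts came from physiological replicate 2, and physiological replicate 1 (0.0833 CPM) was below the 0.126 to 0.263 CPM that a count of 0 allows in the pathological libraries. Pathological replicate 3 was at 0 although it was Alb-rich.

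**Figure D5:**
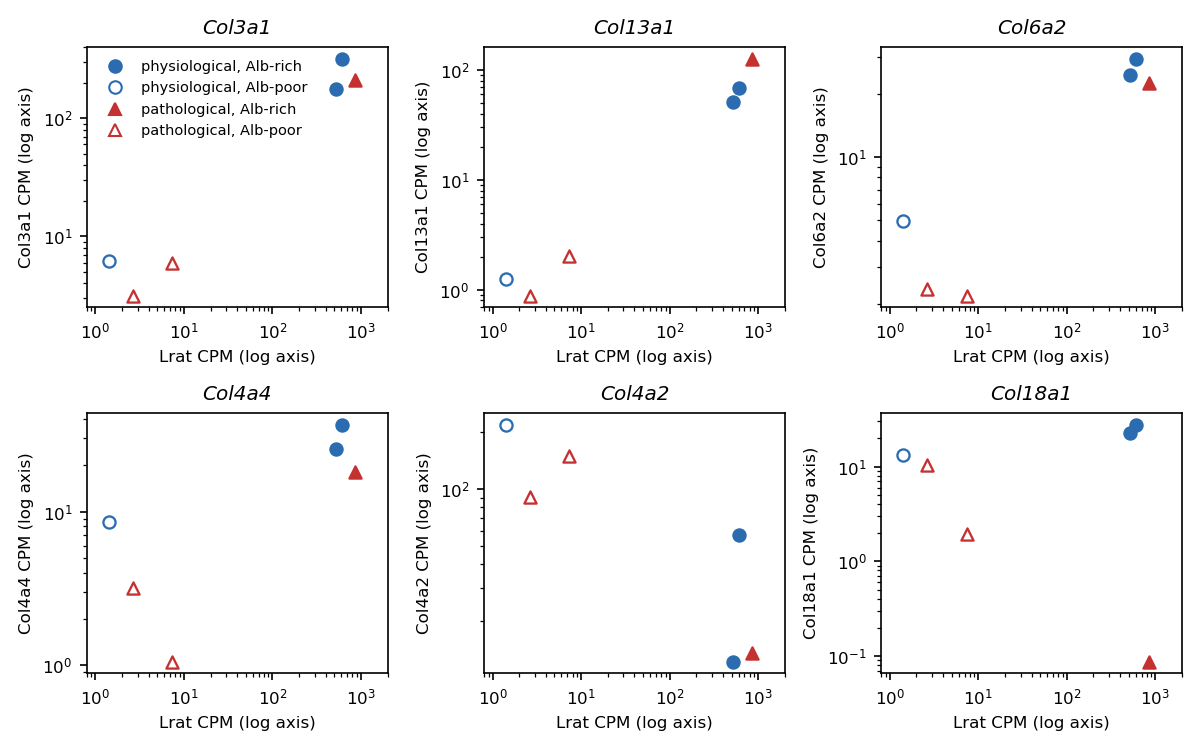
CPM of 6 collagen chains against CPM of Lrat, a stellate cell gene, in each library (both axes log). Col3a1, Col13a1, Col6a2 and Col4a4 are high where Lrat is high (519 to 853 CPM), Col4a2 is low there, and Col18a1 is near 0 in 1 library with high Lrat.

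Some other chains were counted mainly in the Alb-poor libraries. As given above, 7 of 20 chains were lower in every Alb-rich library, near the 33.2% of all genes tested. Col12a1, a fibril-associated collagen of tissues under tension, measured 8.99, 0.935, 0, 3.41, 1.23 and 0 CPM. Col7a1, the anchoring fibril collagen, measured 4.25, 0.292, 0, 1.47, 0.719 and 0 CPM, and Col8a1, a network former of vessel walls, 7.58, 3.86, 0, 2.86, 0.254 and 0 CPM. For all 3, physiological replicate 1 was the highest and physiological replicate 3 and pathological replicate 3 had no count. Their log2 fold changes were -0.91, -0.82 and -1.84, with intervals that crossed 0.

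Col20a1, Col11a2 and Col2a1 had no count in any Alb-rich library, and the share of all genes with that pattern is not given here. Col2a1, the fibrillar chain of cartilage, measured 1.12, 1.89 and 2.66 CPM in physiological replicate 1 and pathological replicates 1 and 2. The partner fibrillar chain Col11a2 measured 1.71, 4.42 and 1.14 CPM there, and the fibril-associated Col20a1 3.08, 3.58 and 4.10 CPM. The log2 fold changes of these 3 chains were 2.30, 1.86 and 1.62, with edgeR adjusted p of 1.00; the Alb-poor libraries comprise 1 of the 3 physiological and 2 of the 3 pathological libraries. Of the 18 chains with counts that were not tested, 14 had counts only in Alb-poor libraries, and 4 had them in an Alb-rich library as well. Those 18 had 5 to 82 counts each. The Alb-poor libraries also had the larger totals, 23649036 to 24025406 counts against 8925149 to 17117840. The share of all other low-count genes found only in Alb-poor libraries was not computed, so whether the 14 differ from such genes was not tested. Chains with at least 1 count numbered 34, 21 and 13 at physiological and 33, 24 and 11 at pathological pressure, and libraries with fewer detected genes in all also had fewer detected chains within each pressure group. The network-former Col8a2 had 31 of its 64 counts in physiological replicate 3.

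All 44 genes together measured 762, 857 and 496 CPM at physiological and 324, 340 and 641 CPM at pathological pressure, or 705 ± 187 against 435 ± 179 CPM (SD, n = 3 each). The groups overlapped, because pathological replicate 3 was above physiological replicate 3. The difference of mean log2 levels was -0.73, and it ran from -1.05 to -0.56 with 1 library left out.

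The enzymes that modify collagen chains showed no call either. Among 12 tested prolyl and lysyl hydroxylases and glycosyltransferases, 8 had positive and 4 negative log2 fold changes, with a median of 0.24, and edgeR gave 0 adjusted and 0 unadjusted p under 0.05. P4ha2, a catalytic subunit of prolyl 4-hydroxylase, measured 27.3, 30.8, 42.8, 20.9, 14.8 and 4.11 CPM, with groups that did not overlap and a log2 fold change of -1.46 (95% CI -3.96 to 1.04). Its paralog P4ha1 measured 257, 128, 11.2, 316, 493 and 32.4 CPM, the opposite sign with overlapping groups (1.32, 95% CI -1.33 to 3.96). The beta subunit P4hb measured 242 to 1225 CPM and was lowest in physiological replicate 3 and pathological replicate 3.

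Among 12 chaperones and secretion factors, 9 were positive and 3 negative, with a median of 0.32 and 0 calls. Serpinh1 (HSP47), the chaperone specific to procollagen, measured 74.1, 254, 139, 40.2, 19.0 and 180 CPM. All 3 Alb-rich libraries were above all 3 Alb-poor ones, as for Col3a1. Sparc, a matricellular protein that binds collagen, measured 243, 1984, 1030, 75.1, 31.8 and 1817 CPM, in the same order of libraries. The peptidyl-prolyl isomerase Ppib measured 208 to 479 CPM.

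Of 11 tested genes of procollagen processing and cross-linking, 3 were positive and 8 negative, with a median of -1.09 and 0 calls. Loxl2, a lysyl oxidase that cross-links collagen and is known for type IV, measured 13.0, 17.5, 36.5, 8.59, 1.48 and 0 CPM. Its groups did not overlap, and as for Col18a1 the lowest value was in pathological replicate 3. Its log2 fold change was -3.04 (95% CI -7.65 to 1.57, edgeR adjusted p = 1.00). For the procollagen N-proteinase Adamts2 the log2 value was -2.39 (95% CI -7.47 to 2.69), and it was -5.49 without pathological replicate 3 and -0.81 without physiological replicate 3. For the cross-linking transglutaminase Tgm2 it was -1.09 (95% CI -3.48 to 1.29), with -2.43 without pathological replicate 3 and -0.11 without physiological replicate 2.

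Collagen receptors were split 4 positive to 4 negative, with a median of 0.20 and 0 calls. Itgb1, the integrin beta chain common to the collagen-binding integrins, measured 1739, 702, 412, 1676, 2015 and 210 CPM, higher in each Alb-poor than in each Alb-rich library, as for Col4a2. The kinases Ddr1 and Ddr2 had log2 fold changes of -2.43 (95% CI -7.77 to 2.91) and -2.28 (95% CI -7.77 to 3.21) at levels below 25 CPM in every library. Fibril-binding proteins had 1 positive and 8 negative values, a median of -0.35 and 0 calls. The proteoglycan Bgn (biglycan) measured 31.9, 382, 349, 22.0, 11.9 and 587 CPM, high in the Alb-rich libraries, while the matrix glycoproteins Fbln1 and Thbs2 had log2 fold changes of -4.69 and -1.71 at 12.2 CPM or less.

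TGF-beta is the best known inducer of fibrillar collagen genes. Of 15 tested genes of its signalling, 6 were positive and 9 negative, with a median of -0.33 and 0 calls after adjustment. Tgfbr3 (betaglycan), the co-receptor that presents TGF-beta, measured 54.8, 52.9 and 58.8 CPM at physiological and 10.9, 11.3 and 13.0 CPM at pathological pressure. These values did not overlap and varied little within a group, in Alb-rich and Alb-poor libraries alike. The log2 fold change was -2.24 (95% CI -4.27 to -0.21), with an unadjusted p of 0.0343 and an edgeR adjusted p of 1.00, so it did not pass the threshold over all genes. The inhibitory Smad7 measured 24.4 to 206 CPM (log2 fold change 1.33, 95% CI -0.64 to 3.31).

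Markers of cell types that make collagen differed between the libraries as well. The 15 stellate cell markers summed to 481 to 715 CPM in the Alb-poor and 1733 to 2647 CPM in the Alb-rich libraries. Reln, 1 of the 15, made up most of the Alb-poor sums and ran the other way (655, 79.7, 20.3, 501, 389 and 0.875 CPM). Without Reln the other 14 summed to 49.3 to 92.8 CPM in the Alb-poor and 1653 to 2646 CPM in the Alb-rich libraries, so the Alb-rich libraries, where 5 chains were higher and 7 lower, were the ones rich in these markers. The stellate and pericyte receptor Pdgfrb measured 5.54, 18.3, 48.1, 0.589, 0.803 and 0 CPM. The smooth-muscle actin gene Acta2 measured 3.71, 13.1, 18.5, 1.39, 0.550 and 0 CPM. Both were thus at 0 in pathological replicate 3, where Lrat, Col3a1 and Col13a1 were high. Markers of portal fibroblasts, smooth muscle and mesothelium summed to 5.03 to 23.2 CPM in the Alb-poor and 110 to 217 CPM in the Alb-rich libraries, with 3 of 7 tested markers higher in every Alb-rich library. Tagln, Eln and Msln carried that sum: the other 8 markers summed to 11.6, 8.65, 0.448, 11.9, 3.76 and 34.3 CPM. Of these 8, the smooth-muscle myosin gene Myh11 measured 5.91, 0, 0.112, 3.96, 0.930 and 2.28 CPM, and Thy1, Wt1 and Cnn1 had no count in any Alb-rich library. The others were highest in an Alb-rich library. Upk3b and Entpd2 peaked in pathological replicate 3 (17.2 and 14.8 CPM), and Fbln2 and Gli1 in physiological replicate 2 (5.32 and 0.935 CPM). The part of each cell type in the collagen levels was not tested.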

How the data were processed

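Expected counts per gene in 6 libraries were used as the authors deposited them, per the file headers. The submitters' processing notes name STAR, RSEM and limma, without versions. Genome build, annotation and strand setting: not given in the sources used here, so overlapping or antisense genes could share reads. The counts were rounded to whole numbers.

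Levels are CPM of unscaled library totals (8925149 to 24025406 counts), and a count of 0 allows up to 0.125 to 0.336 CPM per library (3 counts). The test was edgeR's quasi-likelihood F-test (edgeR 4.0.16, R 4.3.3) on 3 against 3 libraries, two-sided, with TMM scaling, filterByExpr and Benjamini-Hochberg adjustment over 12742 genes (threshold 0.05). The fitting script was tested on simulated data with much less spread between libraries than these data, so that test does not show what could be detected here. Confidence intervals were taken from the fit's F statistic. Counts of libraries that do not overlap used unscaled CPM. Ratios carry exact (Clopper-Pearson) and shares Wilson 95% intervals. Every pair of libraries differed by more than sampling noise (chi-square over genes). Alternatives were DESeq2 1.42.0, limma-voom (limma 3.58.1), other scalings and filters, the Alb-rich or Alb-poor libraries alone, an Alb covariate, a block of neighbouring sample numbers, and each library left out.

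The members and gene lists were chosen with earlier results of these data known. Named were all tested chains of types I, III, V, IV, XV, XVIII and VI, other chains with a mean of at least 1 CPM in either group, and per partner list the 2 genes with the smallest p and the most abundant one, beside Alb and Lrat. One gene that this rule names is not reported here. Other genes were chosen after their values were seen (Reln, Pdgfrb, Acta2, other named markers and chains named in a count). Of the list symbols, 208 matched directly and 6 did not. Transcript lengths were not used, so ratios, shares and sums over different genes compare counts and not numbers of transcripts.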

Additional observations from a re-analysis of the deposited data

How the results depend on the processing

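With only the Alb-rich libraries (1 pathological), 244 of 12652 genes passed the adjusted threshold, none of them a collagen chain, against 0 of 12742 with all 6. There the median of all genes was -0.58 against 0.05, and the lone library is assumed to vary like the other group. DESeq2 called 1 gene and no chain. Of the 20 tested chains, 13 kept the sign of their log2 fold change in all of up to 16 other fits that could test them, and 7 did not. Without 1 library each, Col13a1 ran from -4.86 to 0.64, Col6a1 from -3.602 to 2.502, Col1a1 from -2.18 to 0.47, Col7a1 from -1.58 to 2.22, Col4a2 from -0.84 to 1.35, Col14a1 from -3.44 to 0.53 and Col12a1 from -1.96 to 1.69. The reversals were without physiological replicate 1 for Col7a1 and Col12a1, and without physiological replicate 3 for Col1a1. Likewise Ppib ran from -0.078 to 0.62, Itgb1 from -0.060 to 1.19 and Bgn from -4.12 to 0.21. Chains that kept their sign also moved without 1 library: Col3a1 from -5.26 to -0.50, Col4a1 from -0.77 to -0.05, Col4a4 from -3.66 to -1.18, Col5a1 from -9.34 to -1.85, Col5a2 from -1.46 to -0.60, Col8a1 from -4.43 to -0.95, Col18a1 from -4.25 to -1.98, Col2a1 from 1.40 to 7.73, Col11a2 from 0.47 to 7.88, Col20a1 from 0.89 to 8.46 and Col27a1 from 1.40 to 4.12. The 4 highest of these positive values were without physiological replicate 1.

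Signs also reversed under other settings. With unscaled totals Col6a1 was -0.080 and Col4a2 -0.18. With RLE size factors Col14a1 was 0.0885 and with DESeq2 0.0883. With limma-voom Col13a1 was -0.70 and Col4a2 -0.18. With the Alb covariate Col13a1 was -0.30, Col6a1 -0.88, Col4a2 -0.37, Col14a1 0.73 and Itgb1 -0.035. With the Alb-poor libraries alone Col6a1 was -2.07, Col4a2 -0.49, Col14a1 2.53, Ddr1 0.0034, Ddr2 0.96, Fbln1 0.16 and Thbs2 1.85. With the Alb-rich libraries alone Col4a2 was -1.30, Col14a1 0.87, P4ha1 -1.004, P4hb -0.14, Sparc 0.28, Itgb1 -1.41 and Bgn 0.65. No label pairs samples across the groups. With a block of neighbouring sample numbers Col13a1 was -1.09, Col6a1 -1.77 and Col14a1 0.19, with 0 genes called. The cause of these reversals was not tested.

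RLE scaling moved the median of all genes to 0.15. With TMM-scaled totals, added after seeing the data, 6 rather than 5 chains were higher in every Alb-rich library. The added chain was Col1a1. The share of all genes under that scaling is not given here, nor is the number of chains that were lower. The 15.6% given above is for unscaled totals. A common biological coefficient of variation of 1.39 limits what 3 libraries a group can show.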

Other observations

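Several liver genes encode a collagen-like domain without a collagen name, and these were chosen after their values were seen. Of 24 such genes, 13 passed the filter and 3 had no count. Of the 13, 9 were higher in every Alb-rich than in every Alb-poor library, against 15.6% of all genes tested. None was lower, against 33.2%, and 4 overlapped (Adipoq, Colec12, Emid1 and Fcna). Among the 9, C1qa, C1qb, C1qc, Marco and Colec11 are also in the marker lists of macrophages or stellate cells. Colec11 and Colec10, which encode the collectins CL-K1 and CL-L1, measured 8.37, 320, 471, 12.1, 17.4 and 459 CPM and 0.749, 401, 170, 4.63, 2.71 and 378 CPM in physiological replicates 1 to 3 and pathological replicates 1 to 3. Both are among the 9, as are the scavenger receptor Marco (4.58, 105, 65.8, 2.65, 1.31 and 104 CPM) and the mannose-binding lectin Mbl1 (0.541, 30.1, 9.97, 0.674, 0.761 and 63.3 CPM). The ficolin gene Fcna, which overlapped, measured 19.5, 79.98, 17.25, 21.7, 0.507 and 56.5 CPM.

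C1qa and C1qb, macrophage genes for chains of complement C1q, were also higher in the Alb-rich libraries. They measured 56.7, 218, 131, 58.7, 2.37 and 177 CPM and 50.0, 198, 151, 45.6, 0.0423 and 198 CPM. Pathological replicate 2 stood apart as the lowest for both, and its sum of 13 macrophage markers was 41.7 CPM against 826 to 1431 CPM in the other 5 libraries. Col5a2 was also lowest there (2.75 CPM), while Col4a2 was at 150 CPM; the part of macrophage content in these levels was not tested.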
